A study of Mus musculus with 2 samples.

Results

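10 members of the platelet-derived growth factor (PDGF) and vascular endothelial growth factor (VEGF) families were followed in liver cells of mice with carbon tetrachloride (CCl4) injury. They were named by symbol, as 4 receptors (Pdgfra, Pdgfrb, Flt1 and Kdr) and 6 ligands (Pdgfa, Pdgfb, Pdgfc, Pdgfd, Vegfa and Vegfc), and all 10 were found among the 31054 features counted. The cells came from male mice of C57BL/6 background that had received CCl4, tamoxifen and diphtheria toxin over 4 weeks. The p16-LRTD mice carried p16-CreERT2 and a tdTomato and diphtheria toxin receptor cassette at R26 behind a loxP stop and a rox stop. The p16-Alb-LRTD mice carried the same alleles plus Alb-DreERT2, so that both stops could be removed only in hepatocytes with high p16 activity, which diphtheria toxin then eliminates. The study names possible leakage of the toxin receptor past the loxP stop as a limit of this model. Hepatic stellate cells were enriched by a density gradient and sequenced as 2 droplet libraries, 1 for each genotype, and how many mice went into a library is not given in the sources used here.

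PDGF ligands are dimers of the A, B, C or D chain that signal through the receptor tyrosine kinases PDGFRα and PDGFRβ, and in injured liver they are known as growth and migration signals for stellate cells, the vitamin A-storing pericytes of the sinusoid. VEGF-A signals to endothelium through VEGFR2, encoded by Kdr, while VEGFR1, encoded by Flt1, binds the same ligand tightly and, in its soluble form, holds it away from Kdr. VEGF-C acts mainly on lymphatic and sinusoidal endothelium through VEGFR3, encoded by Flt4.

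Cells were sorted into classes by summed transcripts of gene sets that hold no member: Lrat, Ecm1, Hgf and Reln for stellate cells, Stab2, Ptprb and Cdh5 for endothelial cells, and Clec4f, Cd5l, Vsig4 and Csf1r for Kupffer cells. A cell had to pass 1 gate only. The stellate class held 7854 cells from p16-LRTD and 6621 from p16-Alb-LRTD, the endothelial class 431 and 282, and the Kupffer class 199 and 116. A unique molecular identifier (UMI) marks 1 captured transcript at its 3′ end, so that levels are given as CPM, the UMI count scaled to a common total of 1e6 per class and library, without a correction for gene length. Of each pair of values the first is that of p16-LRTD. Marker genes outside the gates went with the labels. Dcn was at 18429 and 22186 CPM in the stellate class against 319 and 257 CPM in the endothelial class and 240.0 and 232 CPM in the Kupffer class, and Colec11 was at 3222 and 2725 CPM against 52.8 and 37.8 CPM and 35.2 and 31.6 CPM. Des, Cygb and Rgs5 were likewise highest in the stellate class of both libraries. With 1 library per genotype no test of the genotypes was possible. Intervals are 95% and cover counting error only, and the genotype cannot be told apart from the mouse, the isolation or the library.

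The promoters of 4 members are shown: Flt1 and Kdr, the paired receptors for VEGF-A whose transcripts are set side by side in stellate and endothelial cells below, Pdgfra, which was compared with Pdgfrb cell by cell, and Vegfa, which was lower in p16-Alb-LRTD stellate cells. Each is a RefSeq window of GRCm38.p6 from 250 bases before to 50 bases after the transcription start, written 5′ to 3′ on the gene's strand. Flt1 lies at chr5:147725962-147726261 (minus strand), Kdr at chr5:75978406-75978705 (minus strand), Pdgfra at chr5:75152001-75152300 (plus strand) and Vegfa at chr17:46032328-46032627 (minus strand). Capitals mark GGGCGG (the GC box), TATAAA (the TATA box) and AGGAAG (an ETS core) on either strand, and no marked stretches overlap.
Flt1: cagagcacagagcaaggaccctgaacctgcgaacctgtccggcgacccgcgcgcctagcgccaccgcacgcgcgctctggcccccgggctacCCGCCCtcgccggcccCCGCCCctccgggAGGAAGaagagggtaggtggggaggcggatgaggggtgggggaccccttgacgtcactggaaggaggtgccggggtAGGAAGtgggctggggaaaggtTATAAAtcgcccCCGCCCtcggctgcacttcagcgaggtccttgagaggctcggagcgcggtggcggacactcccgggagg
Kdr: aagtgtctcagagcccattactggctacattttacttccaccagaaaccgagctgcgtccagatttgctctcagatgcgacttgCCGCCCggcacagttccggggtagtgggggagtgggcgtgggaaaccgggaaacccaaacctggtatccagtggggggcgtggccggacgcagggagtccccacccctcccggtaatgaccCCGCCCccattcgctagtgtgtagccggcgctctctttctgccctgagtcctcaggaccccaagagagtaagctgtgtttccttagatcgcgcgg
Pdgfra: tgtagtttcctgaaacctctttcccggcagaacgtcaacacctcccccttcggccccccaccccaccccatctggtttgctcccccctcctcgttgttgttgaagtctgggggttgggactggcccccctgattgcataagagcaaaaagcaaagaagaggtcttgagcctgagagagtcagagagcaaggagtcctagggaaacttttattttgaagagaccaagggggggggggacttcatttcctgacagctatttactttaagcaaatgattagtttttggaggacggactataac
Vegfa: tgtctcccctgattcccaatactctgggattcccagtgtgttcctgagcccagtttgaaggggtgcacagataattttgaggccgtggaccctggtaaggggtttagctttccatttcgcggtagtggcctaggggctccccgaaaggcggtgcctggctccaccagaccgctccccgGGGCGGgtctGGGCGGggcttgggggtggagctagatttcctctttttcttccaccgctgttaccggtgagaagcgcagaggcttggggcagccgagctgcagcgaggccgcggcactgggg
The Flt1 window held 3 GC boxes, a TATA box 31 bases before the start and 2 ETS cores, whereas the Kdr window held 2 GC boxes and neither of the other motifs. The Vegfa window held 2 GC boxes, and the Pdgfra window none of the 3 motifs. Of 32851 promoter windows of the same length, 35.7% held a GC box, 13.6% a TATA box and 35.4% an ETS core, so that each motif is common. Pdgfra and Kdr both lie on chromosome 5, with 735 kb between them, and had their highest levels in different classes.

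Each receptor had 1 main class. Pdgfra was at 239 and 319 CPM in stellate cells, 39.9-fold and 48.0-fold above the next class. Pdgfrb was at 376 and 231 CPM in stellate cells, 23.2-fold and 43.3-fold above Kupffer cells, which came next. Kdr was at 2496 and 2267 CPM and Flt1 at 1140 and 984 CPM in endothelial cells, whereas Kdr did not reach 5 CPM in either other class. The ligands were divided among the classes: Pdgfc belonged to Kupffer cells (292 and 265 CPM), Vegfc led in stellate cells (282 and 295 CPM), and Pdgfd was shared by endothelial cells (142 and 214 CPM) and stellate cells (105 and 122 CPM). Pdgfa was at 35.4 and 46.3 CPM in stellate cells and 27.9 and 32.3 CPM in Kupffer cells. The order for Pdgfb was not the same in the libraries, with endothelial cells above Kupffer cells in p16-LRTD (84.4 against 52.7 CPM) and below them in p16-Alb-LRTD (22.9 against 60.3 CPM). Vegfa was low in all 3 classes, between 4.00 and 15.1 CPM, and the interval of the ratio between neighbouring classes held 1 except for endothelial over stellate cells of p16-Alb-LRTD.

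**Figure D1:**
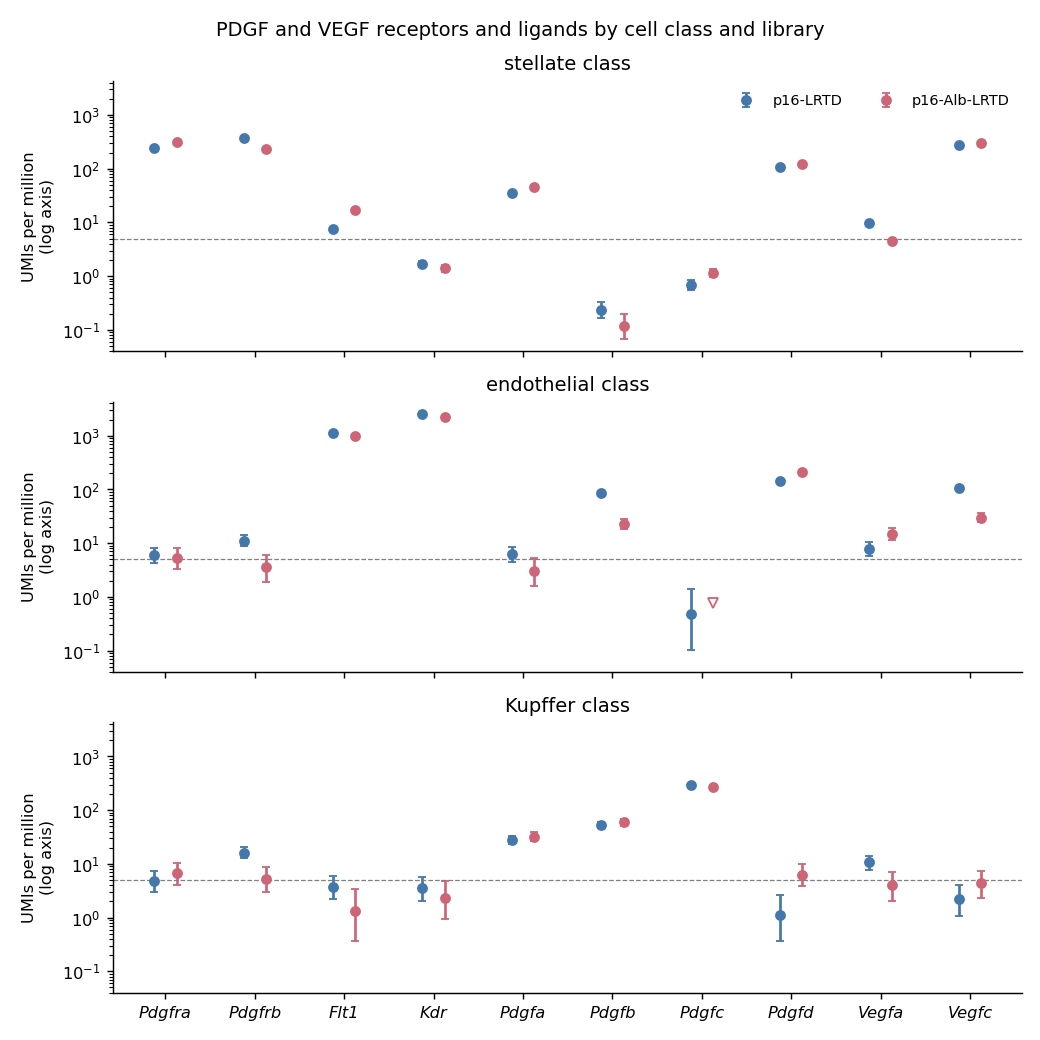
CPM (log axis) of each receptor and ligand in the stellate, endothelial and Kupffer classes of the p16-LRTD and p16-Alb-LRTD libraries. Points are summed counts of 1 library with exact 95% Poisson intervals, the dashed line is the 5 CPM minimum, and the open triangle is the level that 3 UMIs would give where none was counted; Kdr is highest in the endothelial class and Pdgfc in the Kupffer class.

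In stellate cells the PDGF receptors went opposite ways between the libraries, Flt1 was higher and Vegfa lower in p16-Alb-LRTD, and the other ligands at the minimum level differed by less than 1.5-fold. A gene was counted as past the fold if it averaged at least 5 CPM and differed at least 1.5-fold, which is 0.585 on the log2 scale. This held for 3 of the 7 members at that level, against 6.09% of all 10180 genes: Flt1 was higher, as were 3.03% of genes, and Pdgfrb and Vegfa were lower, as were 3.06% of genes. Vegfa reached the minimum only through its p16-LRTD level, as did Pdgfrb in endothelial cells and Vegfa in Kupffer cells below, so that such a member could be counted only as lower. The median log2 ratio of p16-Alb-LRTD over p16-LRTD was 0.21 for the 7 members and -0.05 for all genes. Genes of the dissociation stress list, which respond to enzymatic digestion, moved in the same libraries, with 7 of 12 higher past the fold and a median log2 ratio of 0.73. Of these, Hspa1b (4.63 and 15.3 CPM) reached the minimum only through p16-Alb-LRTD and could be counted only as higher. Other marker lists were lower in p16-Alb-LRTD stellate cells: smooth muscle (Myh11, Cnn1, Acta2 and Actg2) summed to 197 and 86.9 CPM with both genes at the minimum level past the fold, portal fibroblast (Dpt, Gli1, Thy1, Entpd2 and Cd34) to 79.0 and 39.3 CPM with 3 of 3, and proliferation (Mki67, Top2a, Birc5 and Ccnb1) to 58.7 and 7.79 CPM. Mki67, Top2a, Birc5 and Entpd2 reached the minimum only through p16-LRTD. The part of these lists in the differences was not tested, except that without cells with a Mki67 or Top2a UMI the same number of members, 3, was past the fold.

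**Figure D2:**
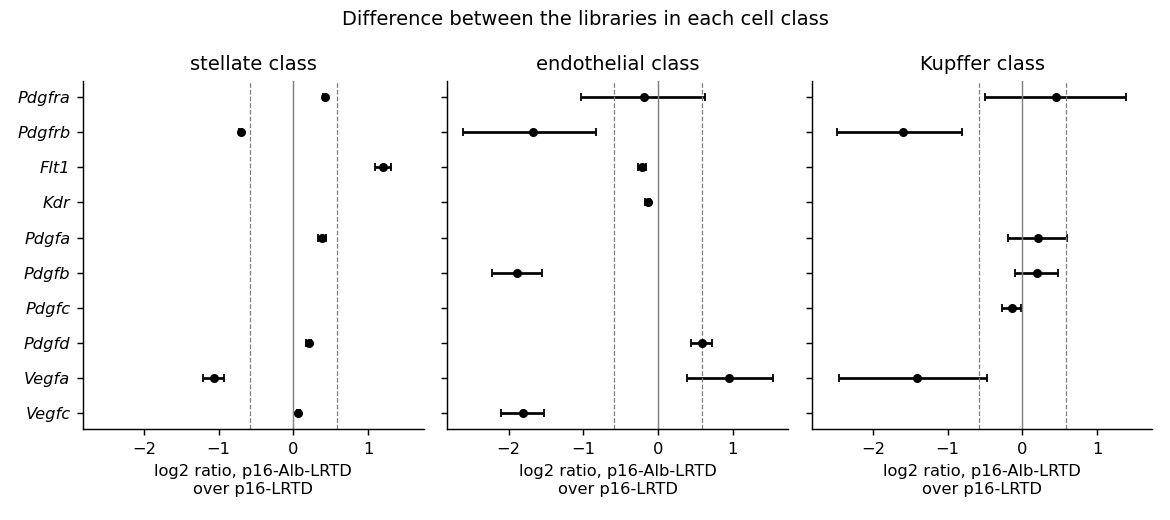
Log2 ratio of p16-Alb-LRTD over p16-LRTD for each member that averaged at least 5 CPM in the stellate, endothelial or Kupffer class. Bars are exact 95% intervals for counting error, and the dashed lines mark 1.5-fold; Flt1 lies above the upper line in stellate cells only, where Pdgfrb and Vegfa lie below the lower one, and Pdgfb and Vegfc lie farthest below it in endothelial cells.

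Pdgfrb, the receptor for the B and D chains, was counted 53617 and 28878 times in stellate cells, a level of 376 CPM (interval 373 to 379) against 231 CPM (228 to 233). The level in p16-Alb-LRTD was thus 1.63-fold lower, a log2 ratio of -0.70 (interval -0.72 to -0.68). Pdgfra, which also binds the A and C chains, was at 239 CPM (237 to 242) against 319 CPM (316 to 323), a log2 ratio of 0.42 (0.40 to 0.44), which is short of the 1.5-fold line although 94.9% of the genes compared had a lower ratio. In p16-LRTD the level of Pdgfrb was thus above that of Pdgfra, and in p16-Alb-LRTD below it.

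The receptor found alone differed most between the libraries, while the shares of cells with both or neither receptor moved less. To compare cells at 1 depth, each was thinned to 5000 UMIs, which left out 16 and 7 stellate cells. Pdgfra was then found in 63.9% (interval 62.8% to 65.0%) and 73.9% of cells, and Pdgfrb in 80.9% (80.0% to 81.8%) and 65.2%. Without thinning the shares were 91.7% and 97.0% for Pdgfra and 98.4% and 95.1% for Pdgfrb, and both were found in 90.2% and 92.4% of cells. Pdgfra alone was then found in 1.45% and 4.59% and Pdgfrb alone in 8.16% and 2.67%. The shares with 1 receptor alone below thus depend on depth and do not count single-receptor cells. Among thinned cells 51.1% and 48.5% held both, 12.8% and 25.4% held Pdgfra alone, 29.8% and 16.7% held Pdgfrb alone, and 6.33% (5.80% to 6.89%) and 9.40% (8.71% to 10.1%) held neither. The share with both lay close to the product of the single shares, 51.7% and 48.2%. Thinned endothelial cells gave 1.67% and 2.13% for Pdgfra and 4.31% and 2.13% for Pdgfrb, at median depths of 11707 and 11983 UMIs against 17025 and 18136 in stellate cells. Of the endothelial Pdgfra UMIs of p16-LRTD 83.8% lay in 10 cells, whereas the 21 of p16-Alb-LRTD lay in 21 cells.

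**Figure D3:**
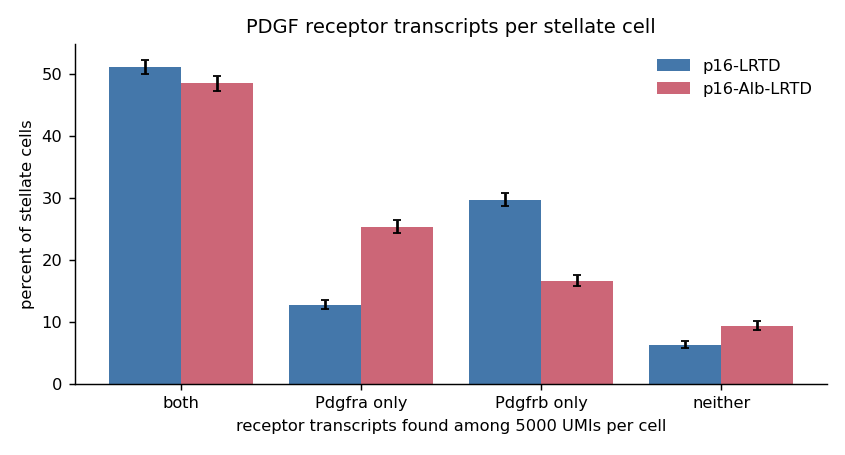
Percent of stellate cells in which both, 1 or neither PDGF receptor transcript was found after thinning each cell to 5000 UMIs, by library. Error bars are exact 95% binomial intervals over cells; Pdgfra alone was found in 12.8% and 25.4% of cells, and Pdgfrb alone in 29.8% and 16.7%.

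Across cells the 2 receptors followed different genes. Among the genes most like Pdgfra by Pearson correlation of log counts within each library, over 7854 and 6621 cells, were Sparcl1 (0.27 and 0.31), Lum (0.28 and 0.27), Ano1 and Sdk2. For Pdgfrb only Htra1 (0.24 and 0.27), Myh11, a smooth muscle myosin that was itself at 150 and 73.8 CPM (0.27 and 0.20), and Tns3 reached 0.2 in both libraries. Between Pdgfra and Pdgfrb the correlation was -0.11 and 0.01. These values are descriptions over cells that share a library, and cell depth and sparse counts bear on all of them.

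Flt1 in stellate cells was counted 1071 times, in 440 cells, in p16-LRTD, against 2162 times, in 790 cells, in p16-Alb-LRTD. Its level was 7.51 CPM (7.06 to 7.97) against 17.3 CPM (16.6 to 18.0), 2.30-fold higher in p16-Alb-LRTD with a log2 ratio of 1.20 (1.10 to 1.31). Kdr, below the minimum, was at 1.69 and 1.41 CPM with a log2 ratio of -0.26 (-0.54 to 0.03). For each Kdr UMI stellate cells held 4.44 (3.86 to 5.13) and 12.2 (10.5 to 14.3) Flt1 UMIs, whereas endothelial cells held 0.457 and 0.434. Without stellate cells that held any UMI of the endothelial gate the log2 ratio was 1.26, a comparison chosen after the values were seen. Where cells past another gate were kept in the class the ratio was 0.66.

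Flt1 transcripts were found in 5.60% and 11.9% of stellate cells without thinning, and in 2.55% (2.21% to 2.93%) and 5.91% (5.36% to 6.51%) of thinned cells. Thinned Kupffer cells gave 2.03% (0.556% to 5.12%) and 0.862% (0.0218% to 4.71%), with 21637 and 25656 UMIs in the median cell, so that the interval of the p16-LRTD share in Kupffer cells, which rests on 4 cells, held the stellate share. By level, Flt1 in stellate cells was 1.99-fold (1.24 to 3.43) and 13.0-fold (5.06 to 47.6) above Kupffer cells. The genes most like Flt1 across stellate cells, compared after its values were seen, were Plxna4 (0.42 and 0.41), Alcam, an adhesion molecule (0.41 and 0.41), Plce1 (0.37 and 0.39), Emp1 (0.29 and 0.34) and Plat, tissue plasminogen activator (0.29 and 0.32). Of the members, Pdgfra had a correlation of 0.12 and 0.15 with Flt1, and Pdgfrb 0.03 and 0.09.

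The receptors were also followed along the collagen content of stellate cells, since Col1a1 itself was at 1950 and 504 CPM. Cells were split into 3 ranges by summed Col1a1, Col1a2 and Col3a1 UMIs after thinning, cut at 8 and 19, and the high range held 43.3% and 19.2% of cells. These are ranges of a continuous level and not cell types. Pdgfra increased along the range in both libraries, from 208 to 222 and 264 CPM in p16-LRTD and from 290 to 329 and 359 CPM in p16-Alb-LRTD, and the p16-Alb-LRTD level was higher in each range. Pdgfrb was lower in p16-Alb-LRTD in each range, with log2 ratios of -0.85, -0.78 and -0.41 from low to high. Flt1 was at 0.963, 2.03 and 13.6 CPM in p16-LRTD and 5.23, 15.5 and 45.4 CPM in p16-Alb-LRTD, log2 ratios of 2.44, 2.93 and 1.74. The difference in Flt1 was therefore larger within each range than over the class as a whole, and with both libraries given the same mix of ranges it was 1.98. Col1a1 still differed within the high range, at 3722 against 1671 CPM.

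**Figure D4:**
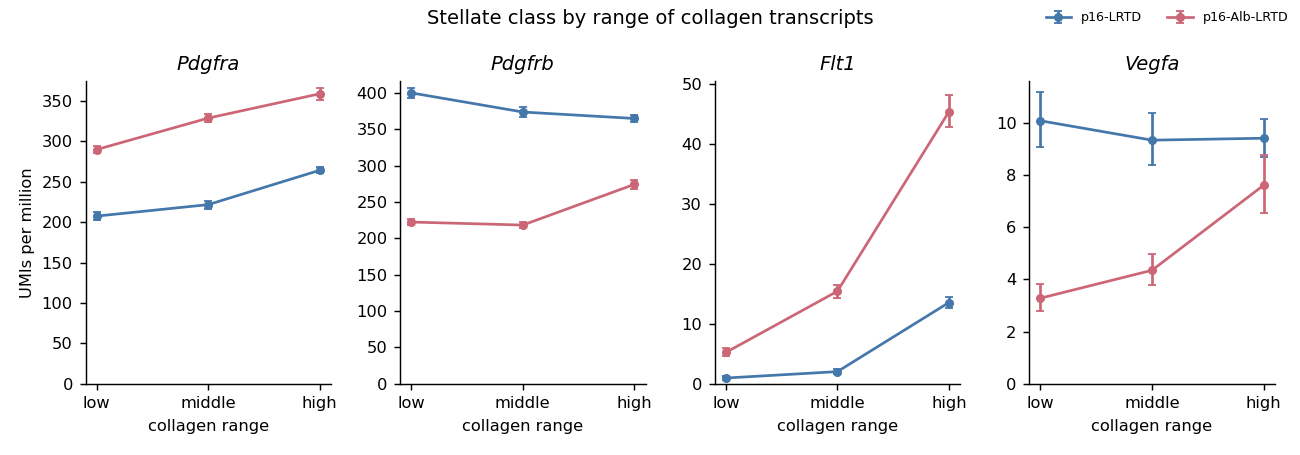
CPM of Pdgfra, Pdgfrb, Flt1 and Vegfa in stellate cells of the low, middle and high collagen range, by library. Points are summed counts with exact 95% Poisson intervals and each vertical axis starts at 0; Flt1 reached 45.4 CPM in the high range of p16-Alb-LRTD, and the Vegfa levels lay closest together in the high range.

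Pdgfra and Flt1 were higher in stellate cells called central than in those called portal in both libraries, and Pdgfrb was lower. The names refer to list UMIs, since no position in the lobule was measured. Cells with more UMIs of the portal list (Ngfr, Igfbp3, Il34 and Tagln) than of the central list (Rspo3, Adamtsl2, Loxl1 and Spon2) were called portal, 6080 and 4778 cells, and the reverse central, 1677 and 1736 cells. Pdgfra was at 218 and 286 CPM in portal and at 306 and 415 CPM in central cells. Flt1 was at 5.05 and 11.7 CPM in portal and at 15.2 and 33.3 CPM in central cells. Pdgfrb was at 394 and 234 CPM in portal and at 319 and 222 CPM in central cells, so that the difference between the libraries was present on both sides. Col1a1 was at 1604 and 411 CPM in portal and at 3023 and 772 CPM in central cells. The part of collagen content in the portal and central levels was not tested. Of the central list Loxl1 and Spon2 were lower past the fold in p16-Alb-LRTD (log2 ratios -1.11 and -0.95), and no portal list gene was.

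Of the 4 member ligands at the minimum level in stellate cells, Vegfa had the largest difference. It was counted 1365 and 571 times, at 9.57 CPM (9.07 to 10.1) and 4.56 CPM (4.20 to 4.95), 2.10-fold lower with a log2 ratio of -1.07 (-1.21 to -0.93). The log2 ratio was -1.62 in the low, -1.10 in the middle and -0.31 in the high collagen range, and -1.46 in portal against -0.42 in central cells. Cells past no gate held Vegfa at 41.9 and 68.3 CPM, and the part of free RNA in the stellate counts was not tested. Vegfc, at 282 CPM (279 to 285) and 295 CPM (292 to 298), differed by a log2 ratio of 0.06 and was found in 67.5% and 69.3% of thinned cells. Pdgfd, a ligand of PDGFRβ, was at 105 and 122 CPM (log2 ratio 0.21) and Pdgfa, a ligand of PDGFRα, at 35.4 and 46.3 CPM (log2 ratio 0.39), neither past the fold. Pdgfb and Pdgfc were below the minimum, with 34 and 15 UMIs of Pdgfb among all stellate cells, so that few transcripts of the B chain were counted in the cells with its receptor. The log2 ratio on these counts was -0.99 (-1.97 to -0.08) for Pdgfb and 0.73 (0.35 to 1.12) for Pdgfc. Pdgfc had 98 and 143 UMIs, and 51.0% and 53.1% of them lay in 10 cells.

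In endothelial cells the main VEGF receptors differed little, and 2 ligands, Pdgfb and Vegfc, were lower in p16-Alb-LRTD by more than 3-fold. Of the 8 members at the minimum level 5 were past the fold, against 20.2% of 9844 genes: Pdgfd and Vegfa were higher (6.43% of genes were) and Pdgfb, Vegfc and Pdgfrb lower (13.8% of genes were). The median log2 ratio was -0.20 for the 8 members and -0.10 for all genes. Scaling by the median of ratios shifted every ratio of this class up by 0.10, which changed no direction among the members.

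Kdr was at 2496 CPM (2457 to 2536) and 2267 CPM (2220 to 2314), a log2 ratio of -0.14 (-0.18 to -0.10), and was found in 99.0% and 99.6% of thinned cells. Flt1 was at 1140 and 984 CPM, a log2 ratio of -0.21 (-0.27 to -0.15). The genes most like Kdr across endothelial cells were Bmp2 (0.64 and 0.55), Stab2 (0.60 and 0.51), Maf, Selenop and Dnase1l3, all known from sinusoidal endothelium, although Stab2 was used in the gate. Those most like Flt1 that reached 0.2 in both libraries were Ptprb, also a gate gene (0.38 and 0.25), Rbms1, Sptbn1 and Lifr. Between Flt1 and Kdr the correlation was 0.35 and 0.03.

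Pdgfb, the ligand that endothelium uses to recruit pericytes, was counted 520 times in 203 p16-LRTD cells and 91 times in 54 p16-Alb-LRTD cells. Its level was 84.4 CPM (77.3 to 92.0) against 22.9 CPM (18.5 to 28.2), 3.68-fold lower with a log2 ratio of -1.88 (-2.22 to -1.56). Thinned cells held it in 25.4% and 8.51%, against 0.140% and 0.0302% of stellate cells. Vegfc was counted 645 times in 168 cells and 119 times in 53 cells, at 104.7 CPM (96.8 to 113) and 30.0 CPM (24.9 to 35.9), 3.49-fold lower with a log2 ratio of -1.80 (-2.10 to -1.52). Where cells past another gate were kept, the log2 ratio of Vegfc was -0.07, no longer past the fold, and that of Pdgfb was -2.07. Pdgfd went the other way, at 142 CPM (133 to 152) and 214 CPM (199 to 228), a log2 ratio of 0.59 (0.45 to 0.72) that lies at the 1.5-fold line and was 0.25 where cells past another gate were kept and 0.40 without the low sinusoidal range described below. Vegfa was higher on few counts, 48 and 60 UMIs, at 7.79 and 15.1 CPM with a log2 ratio of 0.96 (0.38 to 1.54), and 0.44 where cells past another gate were kept. Pdgfrb was at 11.2 and 3.53 CPM on 69 and 14 UMIs, and 65.2% of the p16-LRTD UMIs lay in 10 cells. Its log2 ratio was -1.67 (-2.61 to -0.82), and -0.34 where cells past another gate were kept. Pdgfra was at 6.01 and 5.29 CPM, a log2 ratio of -0.18 (-1.03 to 0.63). Its ratio was 1.08 (52.9 and 111 CPM) where cells past another gate were kept. Without the low sinusoidal range it was 2.13, with Pdgfra below 5 CPM in both libraries. The middle and high ranges held 3 and 1 Pdgfra UMIs in p16-LRTD and 9 and 3 in p16-Alb-LRTD. Pdgfa (39 and 12 UMIs) and Pdgfc (3 and 0 UMIs) were below the minimum in the class. For Pdgfc the interval in p16-Alb-LRTD reached 0.930 CPM.

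The endothelial classes of the 2 libraries differed in more than these genes, so the ligands were followed within ranges of sinusoidal transcripts. In p16-LRTD endothelial cells Col1a1 was at 215 CPM against 4.79 CPM, and the proliferation list of Mki67, Top2a, Birc5 and Ccnb1 summed to 34.9 against 2.77 CPM. The list for platelets, which are known to carry PDGF (Ppbp, Pf4, Gp9 and Itga2b), summed to 30.7 against 11.8 CPM. Pf4 (22.2 and 7.31 CPM, log2 ratio -1.61) and Itga2b (8.12 and 3.78 CPM, -1.10, at the minimum only through p16-LRTD) were both lower past the fold, Ppbp and Gp9 were at most at 0.504 CPM, and the part of platelets in the Pdgfb difference was not tested. Most of the p16-LRTD Col1a1 lay in the low of 3 ranges of summed Clec4g, Oit3, Fcgr2b, Lyve1, Dnase1l3 and Gpr182, where it was at 555 and 6.17 CPM, against 12.0 and 4.90 CPM in the middle and 20.5 and 2.40 CPM in the high range. From low to high, Pdgfb was at 115, 78.0 and 57.3 CPM in p16-LRTD and 30.1, 19.1 and 20.4 CPM in p16-Alb-LRTD, log2 ratios of -1.94, -2.03 and -1.49. Vegfc was at 143, 90.6 and 76.3 CPM and 31.6, 31.6 and 24.0 CPM, log2 ratios of -2.17, -1.52 and -1.67. Both ligands were thus lower in p16-Alb-LRTD in each range, although cells past another gate, with which Vegfc was no longer past the fold, were left out. From low to high the p16-Alb-LRTD counts were few, 39, 35 and 17 UMIs of Pdgfb and 41, 58 and 20 of Vegfc. Pdgfd was higher in each range, with log2 ratios of 0.96, 0.39 and 0.43, and Kdr was slightly higher in the low range (0.15) and lower in the other 2 (-0.24 and -0.23). Pdgfrb, in contrast, was at 21.6 CPM in the low p16-LRTD range and at most 6.88 CPM elsewhere.

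**Figure D5:**
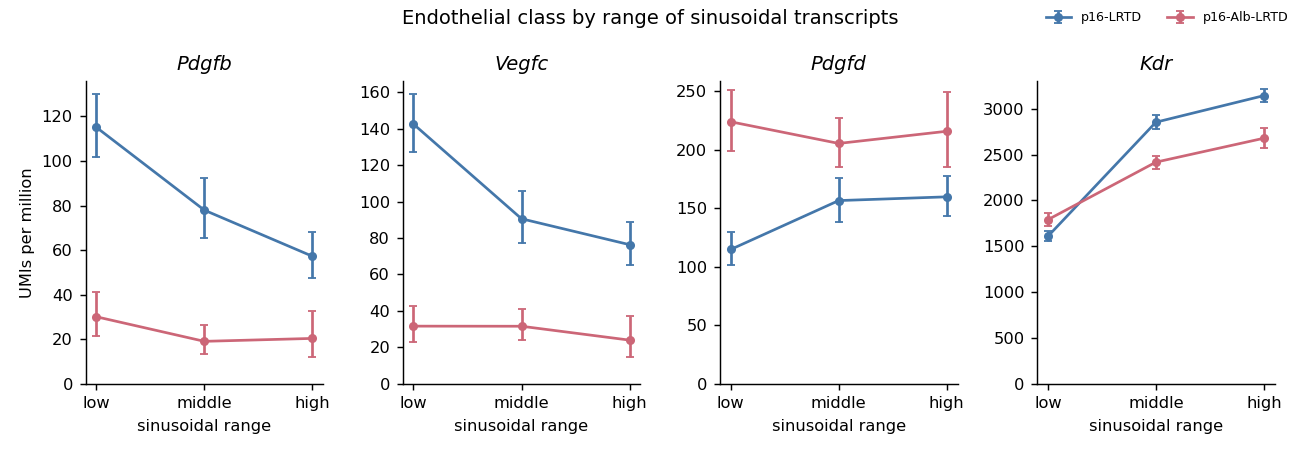
CPM of Pdgfb, Vegfc, Pdgfd and Kdr in endothelial cells of the low, middle and high range of sinusoidal transcripts, by library. Points are summed counts with exact 95% Poisson intervals and each vertical axis starts at 0; the p16-Alb-LRTD levels of Pdgfb and Vegfc are below those of p16-LRTD in all 3 ranges.

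In Kupffer cells Pdgfc, a ligand activated by cleavage, stood at 292 CPM (277 to 309) and 265 CPM (247 to 284), a log2 ratio of -0.14 (-0.27 to -0.01), and was found in 60.4% and 67.2% of thinned cells. Pdgfb was at 52.7 and 60.3 CPM (log2 ratio 0.19) and Pdgfa at 27.9 and 32.3 CPM (0.21), and both intervals held 0. Among cells of 10000 to 30000 UMIs these ratios were 0.67 and 0.82, past the fold. Of the 6 members at the minimum level 2 were past the fold, against 16% of 9517 genes. None was higher (7.16% of genes were) and both were lower (8.88% of genes were). They rest on few counts: Pdgfrb had 73 and 16 UMIs (16.2 and 5.33 CPM, log2 ratio -1.60) and Vegfa 48 and 12 UMIs (10.6 and 4.00 CPM, log2 ratio -1.41, and -0.29 with no filter on barcodes). Col1a1, Col1a2 and Col3a1 summed to 155 and 44.3 CPM in this class, and their part in the Pdgfrb difference was not tested. Of the Pdgfrb UMIs 63.0% lay in 10 of the 199 p16-LRTD cells. The median log2 ratio was 0.03 for the 6 members and -0.06 for all genes. Pdgfd, below the minimum, had 5 and 19 UMIs, of which 11 lay in 1 cell. Pdgfra was at 4.88 and 6.66 CPM with an interval that held 0, and Vegfc, Flt1 and Kdr had at most 17 UMIs in a library.

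Other genes of the pathways were read from lists. Of the 7 other family members and co-receptors, 4 were at the minimum level in each class, with 1 lower past the fold in stellate, 1 in endothelial and 2 in Kupffer cells, against 3.06%, 13.8% and 8.88% of all genes, and none higher. Vegfd in stellate cells and Pdgfrl in Kupffer cells, both among these, reached the minimum only through p16-LRTD and could be counted only as lower. In stellate cells the gene past the fold was Vegfd, a VEGFR3 ligand, at 21.4 and 4.87 CPM (log2 ratio -2.14). Nrp1, a co-receptor for VEGF-A, was at 318 and 225 CPM in stellate cells (-0.50), 1910 and 1416 CPM in endothelial cells (-0.43) and 153 and 110 CPM in Kupffer cells (-0.48), short of the fold in all 3. Vegfb was past the fold only in endothelial cells (39.9 and 26.2 CPM, -0.61). Flt4 was at 689 and 664 CPM in endothelial cells (-0.05).

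Among 8 genes that cleave or process the ligands, 5 were at the minimum level in stellate cells, with 1 higher and 1 lower past the fold, against 3.03% and 3.06% of all genes of the class. Adamts3, the protease that cleaves pro-VEGF-C, was at 19.7 and 55.3 CPM (log2 ratio 1.49). Plat, a protease known to cleave PDGF-C, was at 99.6 and 51.8 CPM (-0.94). Ccbe1, the cofactor of Adamts3, was at 631 and 720 CPM (0.19). Of 13 adaptors and effectors none was past the fold in stellate cells, and Pik3r1, a regulatory subunit of PI3-kinase, came nearest (397 and 583 CPM, 0.55). Of 13 genes that damp receptor signals Cblb, a ubiquitin ligase, was the 1 past the fold (115 and 190 CPM, 0.73). Of 7 mural cell genes 6 were at the minimum level and Notch3 was lower (40.4 and 13.1 CPM, -1.62). Of 11 genes known to respond to low oxygen, 7 were at the minimum level and Adm, which encodes adrenomedullin, was higher (101 and 164 CPM, 0.70).

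In endothelial cells the list of genes known to follow VEGF signalling was lower in p16-Alb-LRTD, with 4 of 7 genes at the minimum level lower and 1 higher past the fold, against 13.8% and 6.43% of all genes of the class, and a median log2 ratio of -0.76 against -0.10 for all genes. Esm1, a marker of tip cells, was at 384 and 57.7 CPM (log2 ratio -2.74). Dll4, a Notch ligand, was at 197 and 87.7 CPM (-1.17). Apln, which encodes apelin, had 90 UMIs in p16-LRTD and 0 in p16-Alb-LRTD, at least 19.3-fold lower when 3 UMIs are taken as the floor of the class, and reached the minimum only through p16-LRTD. Nr4a1, also on the dissociation stress list, was the higher one (15.6 and 30.0 CPM, 0.94), and 10 of 12 genes of that list (Hspa1a and Hspa1b at the minimum only through p16-Alb-LRTD) were higher in this class, against the same 6.43%. In the other classes fewer genes of the VEGF list were measured well: in Kupffer cells the 3 at the minimum level, Egr3, Nr4a1 and Rcan1, were all higher past the fold (7.16% of genes were), with a median log2 ratio of 1.24, and in stellate cells Nr4a1 was higher (43.7 and 117 CPM, 1.42) and Rcan1 was at 15.1 and 15.8 CPM (0.062). Of 12 genes at the minimum level that damp receptor signals, 1 was lower and 1 higher past the fold, with a median log2 ratio of -0.28: Spry4 was lower (136 and 81.4 CPM, -0.74) and Cblb higher (155 and 233 CPM, 0.59). Of the low-oxygen list 2 of 7 were higher, against 6.43% of genes, Ndrg1 (139 and 260 CPM, 0.91) and Bnip3 (10.2 and 19.2 CPM, 0.91), whereas Ldha was at 201 and 141 CPM (-0.50). Of the mural list 3 of 4 were lower, against 13.8% of genes: Kcnj8, Abcc9 and Mcam, with log2 ratios of -1.78, -1.50 and -0.71.

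In Kupffer cells 2 of 12 adaptors were higher and 1 lower, against 7.16% and 8.88% of all genes of the class. These were Src (9.75 and 23.6 CPM, log2 ratio 1.28) and Pik3r1 (500 and 752 CPM, 0.59), which were higher, and Nck2 (55.2 and 36.6 CPM, -0.59), and both Pik3r1 and Nck2 lie at the 1.5-fold line. Nrp2 (57.8 and 36.0 CPM, -0.69) and Pdgfrl (6.43 and 4.00 CPM, -0.69, with an interval that held 0) were lower as well. Plau, which encodes urokinase and is known to cleave PDGF-D, was higher at 13.3 and 25.6 CPM (0.95). The dissociation stress list had 7 of 12 genes higher in this class, against the same 7.16%, with a median log2 ratio of 0.76.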

How the data were processed

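Per the labels, single-cell 3′ libraries were aligned and counted by the authors with Cell Ranger 7.0.1 against mm10, and the deposited values are raw UMI counts, 193746596 in p16-LRTD (11149 barcodes) and 162219167 in p16-Alb-LRTD (8806 barcodes). The study's filters were applied here (at most 5% mitochondrial UMIs, 2000 to 7000 genes, at most 50000 UMIs), which kept 9004 and 7416 cells with a median of 17177 and 18273 UMIs. No doublet caller was run. Cells past exactly 1 gate formed the classes (at least 15 UMIs per 10000 for the stellate gate and 8 for the endothelial and Kupffer gates), and 327 and 283 cells past more than 1 gate and 193 and 114 past none were left out. The libraries shared 95 barcodes. Counts were summed per class and library. Ratios have exact conditional intervals, levels exact Poisson and shares Clopper-Pearson intervals, all at 95%. UMI counts are molecules, but cells of 1 library are not replicates, so no p-value was computed.

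Named genes were all 10 members, up to 4 genes per list with the largest log2 ratio among those of at least 5 CPM, and up to 5 genes most like a receptor with a correlation of at least 0.2 in both libraries, compared over genes of at least 50 CPM. The members and lists were chosen with earlier results of these data known. Gene positions came from GENCODE on GRCm38, and promoter windows from RefSeq, which matched 8 of 10 members (not Pdgfb or Pdgfrb). Alternatives changed the gates, cell filters, scaling (edgeR 4.0.16 TMM factors or median of ratios), weights, minimum and depth. The ratio and its interval were tested on simulated data. Python 3.11.15, numpy 2.4.6, scipy 1.17.1 and pandas 2.3.3 were used. Some marker and correlated genes are not reported here.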

Additional observations from a re-analysis of the deposited data

Results flagged for a closer look

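Vegfa went opposite ways between the libraries in different classes, with a log2 ratio of p16-Alb-LRTD over p16-LRTD of -1.07 in stellate cells and -1.41 in Kupffer cells against 0.96 in endothelial cells. In stellate and Kupffer cells Vegfa reached the minimum only through p16-LRTD, so that it could be counted only as lower. The Kupffer value rests on 48 UMIs in 20 p16-LRTD cells and 12 UMIs in 7 p16-Alb-LRTD cells. Vegfc had a log2 ratio of 0.065 in stellate cells and -1.80 in endothelial cells, and Flt1 1.20 in stellate cells and -0.21 in endothelial cells. Each of these log2 ratios has an interval clear of 0 for counting error, and the difference between classes was not tested, since each genotype had 1 library. The endothelial values of Vegfa and Vegfc fell short of the fold with cells past another gate kept. The Kupffer value of Vegfa fell short of it with no filter on barcodes.

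Cells past no gate, which the comparisons left out, held the highest Vegfa level of all, 41.9 CPM in p16-LRTD (187 UMIs in 193 cells) and 68.3 CPM in p16-Alb-LRTD (183 UMIs in 114 cells). In these cells the macrophage list summed to 2025 and 2044 CPM, the hepatocyte list to 2280 and 1833 CPM and the mesothelial list to 555 and 346 CPM, so that they are a mixture.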

How the results depend on the processing

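No paired analysis was possible because there was only 1 library for each genotype. Of 261 log2 ratios recomputed for 21 member values, 209 stayed within the counting interval of the reported value, 52 moved and none past the fold as reported changed direction. Pdgfra in endothelial cells, reported short of the fold at -0.18, was 1.08 with cells past another gate kept and 2.13 without the lowest sinusoidal range. The value of 2.13 lies below the 5 CPM minimum. It rests on 3 and 1 UMIs in the middle and high ranges of p16-LRTD and 9 and 3 in p16-Alb-LRTD. Members past the fold numbered 5 in stellate cells with no minimum level (24.4% of all genes), and in endothelial cells 2 with cells past another gate kept (Pdgfb and Pdgfra, 11.2%) and 3 without the lowest sinusoidal range (16.7%). In Kupffer cells they numbered 6 with a minimum of 1 CPM or none (25% and 31.2%), 4 with cells past another gate kept (16.2%), 1 with no filter on barcodes (13.1%) and 4 with cells of 10000 to 30000 UMIs (19.2%). Flt1 in stellate cells was 0.66 with cells past another gate kept, 1.38 as a mean over cells and 1.98 at a common collagen mix. Pdgfra there was 0.46 with either scaling, 0.47 as a mean over cells and 0.49 at a common mix. Pdgfrb there was -0.68 with no upper limits or no filter, -0.66 with either scaling or a common mix, -0.74 as a mean over cells and -0.73 without cells with a Mki67 or Top2a UMI. In endothelial cells Kdr was -0.42 with cells past another gate kept, -0.058 and -0.036 with TMM and median-of-ratios scaling, -0.22 as a mean over cells, -0.088 at 10000 to 30000 UMIs and -0.27 without the lowest sinusoidal range. Vegfc was -0.072, -1.41 and -1.50 with cells past another gate kept, at 10000 to 30000 UMIs and without that range. Pdgfc in Kupffer cells was 0.070 with cells past another gate kept and 0.049 without cells with a Mki67 or Top2a UMI, a change of sign in a value short of the fold. At 3000 UMIs the shares were 47.4% and 58.2% for Pdgfra and 65.2% and 48.8% for Pdgfrb. The sinusoidal ranges, the stellate class without endothelial gate UMIs, the removal of shared barcodes and the genes most like Flt1 in stellate cells were chosen after seeing the data. The cause of these shifts was not tested. Counting error limits members under about 100 UMIs, and no error between mice can be given.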
